A study of Mus musculus with 10 samples.

Results

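The genes described here are 45 mouse genes that interferon induces or that load peptides onto class I molecules. They were chosen by gene symbol, with Ifit3b, Ifit3 and the Trim30 genes taken as the starting point because their total RNA was lower in the cerebellum of Bmal1 knockout mice. Of the 45 genes, 44 were among the 22046 genes of the deposited expression table, and Mx2 was not analysed here. The total RNA contrast between knockout and wild type therefore chose some of the members, and its member values are a description: counts of members past a threshold in it are given beside those of all genes, and nothing is read from them.

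Interferons are secreted signals of infection. Type I interferon binds the receptor made of Ifnar1 and Ifnar2, which activates the kinases Jak1 and Tyk2, and these phosphorylate Stat2. Stat2 joins Irf9 in a complex that binds the interferon-stimulated response element (ISRE) in promoters and induces sensors of foreign nucleic acid, antiviral effectors and components of the class I antigen presentation pathway. In brain tissue without infection a low, tonic level of this programme is known, with microglia and endothelial cells among its main contributors.

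The study asked what loss of Bmal1 (gene symbol Arntl), a transcription factor of the circadian clock, does to gene expression and translation in the cerebellum. The knockout group was Bmal1-/- and the wild-type group Bmal1+/+ littermates, both bred by crossing heterozygotes on a C57BL/6 background and kept under 12 h of light and 12 h of dark. The deletion was in the germ line, so every cell type of the knockout animal carried it; the labels give no age, sex or hour of dissection. Snap-frozen cerebellum was lysed, and each lysate gave a total RNA library and a library of ribosome footprints, the mRNA stretches of 28 to 34 nucleotides that ribosomes shield from RNase. The table held both kinds of library for knockout animals 1 and 3 and wild-type animals 2 and 3.

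Recovered depth was 38.9 and 43.2 M reads in knockout total RNA against 25.6 and 27.8 M in wild-type total RNA, and 41.0 and 30.1 M in knockout footprints against 38.1 and 27.7 M in wild-type footprints. Arntl had 267 and 272 RPKM (a read count scaled to gene length and library size) in knockout total RNA, against 179 and 179 RPKM in wild type. Reads per RPKM did not track the deposited gene length (Spearman rho -0.0 across genes), so RPKM values are compared only within a gene and the few reads behind some of them are given. In footprints Arntl had 124 and 107 RPKM in the knockout, against 258 and 295 RPKM in wild type. The footprints of the targeted gene were thus lower in both libraries labelled knockout while its total RNA was higher; the deleted part is not given in the sources used here, and a value over the whole gene also counts reads outside it. Pcp2 of Purkinje cells (942 to 1033 RPKM in total RNA) and Gabra6 of granule neurons (184 to 203 RPKM) were present in all 4 animals, as the tissue label says. Wild-type animal 3 stood apart in choroid plexus markers, of which the 9 with reads in every library summed to 1864 and 2204 RPM (recovered reads scaled to library depth) in knockout total RNA against 874 and 65.9 in wild type. Each tissue was bulk, so fewer cells of a type and less RNA per cell cannot be told apart.

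The ISRE, the element that names this programme, was present in the majority of the member promoters. In RefSeq windows (GRCm38.p6) from 250 bases before to 50 bases after the start, searched for GAAA, any 2 bases and GAAA on both strands, the motif was in 20 of the 36 members with an entry (55.6%) and in 1079 of 27025 genes (3.99%). The GAS element, TTCNNNGAA, another sequence of interferon-responsive promoters, was in 9 of the 36 (25.0%) against 9.55% of genes, and the E-box CACGTG, a sequence that the Bmal1 complex is known to bind, was in 1 member (Trim25, 2.8%) against 8.09% of genes. A match says only that the letters are there. The promoters of the IFIT and Trim30 genes that the results turn on are printed here with that of Isg15, a textbook interferon-induced gene; each is the 250 bases before the RefSeq start, read along the gene's own strand, with ISRE matches in capitals (on the other strand the half-site GAAA reads TTTC).
Ifit3b: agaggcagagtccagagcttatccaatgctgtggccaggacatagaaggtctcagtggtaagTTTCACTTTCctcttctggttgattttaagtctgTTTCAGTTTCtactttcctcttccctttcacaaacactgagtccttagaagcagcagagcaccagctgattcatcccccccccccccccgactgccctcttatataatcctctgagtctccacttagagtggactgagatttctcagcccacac
Ifit3: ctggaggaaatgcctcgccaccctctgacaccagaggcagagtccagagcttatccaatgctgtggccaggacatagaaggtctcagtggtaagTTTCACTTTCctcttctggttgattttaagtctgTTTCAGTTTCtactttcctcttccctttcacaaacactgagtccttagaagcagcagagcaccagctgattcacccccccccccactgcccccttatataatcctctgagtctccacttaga
Ifit1: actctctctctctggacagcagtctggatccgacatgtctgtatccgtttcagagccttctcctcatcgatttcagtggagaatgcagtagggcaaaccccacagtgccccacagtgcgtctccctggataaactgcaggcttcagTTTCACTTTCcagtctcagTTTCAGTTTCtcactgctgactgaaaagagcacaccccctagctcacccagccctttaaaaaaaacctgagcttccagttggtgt
Isg15: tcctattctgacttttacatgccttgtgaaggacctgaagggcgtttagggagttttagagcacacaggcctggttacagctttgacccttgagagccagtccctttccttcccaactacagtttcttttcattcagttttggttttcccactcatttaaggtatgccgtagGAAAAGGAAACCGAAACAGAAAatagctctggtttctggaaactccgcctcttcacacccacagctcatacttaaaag
Trim30a: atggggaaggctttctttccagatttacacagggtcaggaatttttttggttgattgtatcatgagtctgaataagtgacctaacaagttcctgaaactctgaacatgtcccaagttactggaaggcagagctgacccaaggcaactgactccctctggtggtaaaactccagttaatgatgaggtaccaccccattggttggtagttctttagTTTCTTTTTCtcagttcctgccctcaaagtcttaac
Trim30d: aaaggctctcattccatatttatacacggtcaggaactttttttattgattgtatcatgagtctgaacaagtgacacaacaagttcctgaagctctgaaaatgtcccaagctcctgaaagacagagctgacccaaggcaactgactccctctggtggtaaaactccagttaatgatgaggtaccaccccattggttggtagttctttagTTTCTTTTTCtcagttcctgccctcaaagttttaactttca

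The pair Ifit3b and Ifit3 had nearly the same promoter, with 216 of 218 aligned bases identical (99.1%) and both ISRE matches shared, at 188 and 154 bases before the start in Ifit3b and at 156 and 122 in Ifit3. The Trim30a and Trim30d promoters were identical at 226 of 245 aligned bases (92.2%), and each held 1 match, 36 bases before the start in Trim30a and 41 bases before it in Trim30d. In Isg15 3 matches overlapped. The Ifit2 window held no ISRE match but held a GAS match. On the plus strand the printed windows are chr19:34607707-34607956 (Ifit3b), chr19:34583279-34583528 (Ifit3) and chr19:34640639-34640888 (Ifit1). On the minus strand they are chr4:156200819-156201068 (Isg15), chr7:104465194-104465443 (Trim30a) and chr7:104507850-104508099 (Trim30d).

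The IFIT family, whose proteins bind foreign or incompletely capped RNA and hold it back from translation, held the members with the widest gaps between the groups, Ifit3b and Ifit3. Both were chosen because their total RNA was lower in the knockout, so nothing is read from this rank. The 4 genes of the family lie side by side on chromosome 19 (mm10), in the order Ifit2, Ifit3, Ifit3b and Ifit1, with gaps of 7.1, 19.2 and 27.5 kb. Summed over the 4 genes, the family had 7.99 and 6.30 RPM in knockout total RNA against 25.0 and 25.5 in wild type. In footprints the sums were 7.25 and 6.98 RPM in the knockout against 25.8 and 24.9 in wild type. These sums include the chosen pair. Both knockout animals were below both wild-type animals for each of the 4 genes in both kinds of library. Across all genes averaging at least 20 reads, the same order held for 30.1% in total RNA and 22.5% in footprints.

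Ifit3b (ENSMUSG00000062488, chr19:34607970-34613401, plus strand), one of a pair of near-identical IFIT3 genes in the mouse, had 0.620 and 0.434 RPKM in knockout total RNA against 10.2 and 12.0 RPKM in wild type. These values rested on 9 and 7 recovered reads in the knockout against 100 and 125 in wild type. The mean was 21.1-fold higher in wild type, and the limma log2 fold change, on log2(RPKM + 1), was -2.99 (SE 0.14). Its footprints were 1.27 and 0.0952 RPKM in the knockout (18 reads and 1 read) against 13.4 and 13.2 RPKM in wild type (176 and 126 reads). The groups were far apart in both kinds of library, and the footprint log2 fold change was -3.18 (SE 0.37, adjusted p = 0.0671 by limma, 2 animals each). By limma-voom on the recovered reads the footprint change was -4.82 (SE 1.08, adjusted p = 0.0355). Ifit3b reached the levels needed for testing in either fit only through wild type, so nothing is read from these p-values.

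Ifit3 (ENSMUSG00000074896, chr19:34583531-34588731, plus strand), whose human counterpart binds and stabilises IFIT1, had 0.337 and 0.193 RPKM in knockout total RNA against 2.41 and 2.26 RPKM in wild type. The mean was 8.80-fold higher in wild type (log2 fold change -1.40, SE 0.15). In footprints it had 0.316 and 0.248 RPKM in the knockout against 2.71 and 1.83 RPKM in wild type. Both knockout animals were again low and close to each other, on 43 and 25 footprint reads against 342 and 168 in wild type. The footprint log2 fold change was -1.34 (SE 0.27, adjusted p = 0.181 by limma) and -2.99 (SE 0.60, adjusted p = 0.0174) by limma-voom. Ifit3 reached the level needed for testing by limma only through wild type. Of the 28-base words in Ifit3 transcripts 64.0% also occur in Ifit3b, and 56.1% of those of Ifit3b occur in Ifit3, so how reads were divided between these 2 genes is uncertain.

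Ifit2 and Ifit1 share little or no sequence with that pair. Ifit2, which slows translation and promotes apoptosis, had 0.691 and 0.601 RPKM in knockout total RNA against 1.29 and 1.45 RPKM in wild type, on 207 and 200 reads in the knockout against 260 and 313 in wild type. The mean was 2.12-fold higher in wild type (log2 fold change -0.53, SE 0.14). Its footprints were 0.581 and 0.554 RPKM in the knockout against 1.19 and 1.42 RPKM in wild type, and limma-voom gave a footprint change of -1.17 (SE 0.35, adjusted p = 0.140). Ifit1, which binds RNA lacking the methylated cap of host mRNA, had 0.496 and 0.326 RPKM in knockout total RNA against 0.814 and 0.604 RPKM in wild type. In footprints Ifit1 had 0.699 and 0.915 RPKM in the knockout against 1.59 and 1.81 RPKM in wild type (log2 fold change -0.58, SE 0.25, adjusted p = 0.507 by limma). Ifit1 in footprints and Ifit2 in total RNA reached the level needed for testing by limma only through wild type. The gap was widest in the near-identical pair, which was chosen for being low in the knockout, and narrower in Ifit2 and Ifit1. The groups did not overlap in any of these genes.

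**Figure D1:**
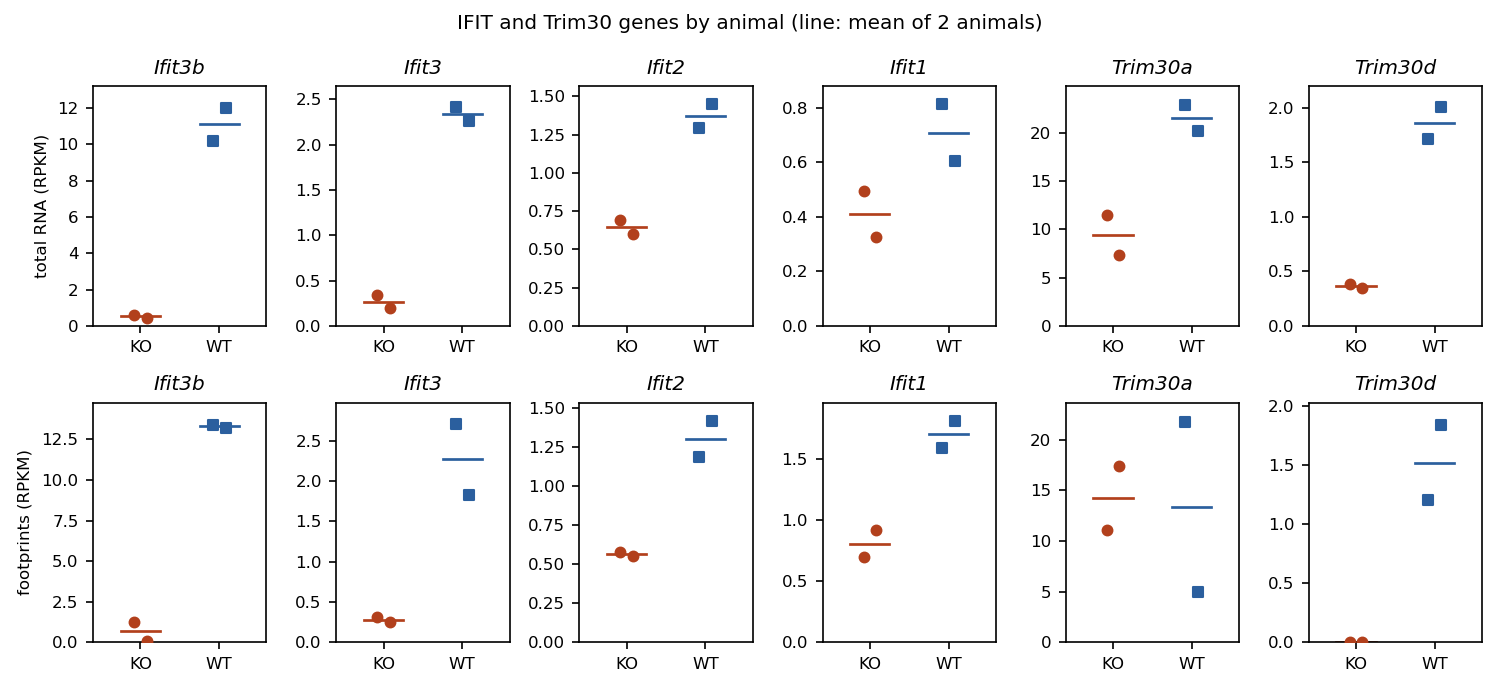
RPKM of the 4 IFIT genes and the 2 Trim30 genes in total RNA (top row) and footprints (bottom row), 1 point per animal and a line at the mean of 2 animals, with knockout (KO) left of wild type (WT) and a separate linear axis from 0 for each gene. Knockout points lie below wild-type points in every panel except the footprints of Trim30a, where 11.1 and 17.4 RPKM in the knockout fall between 21.7 and 5.02 RPKM in wild type.

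The second set of low values was in the Trim30 genes, which code for RING-finger proteins; Trim30a is known to restrain NF-kB signalling from Toll-like receptors. Trim30a (ENSMUSG00000030921, chr7:104409025-104465193, minus strand) had 11.5 and 7.33 RPKM in knockout total RNA against 22.9 and 20.2 RPKM in wild type. The mean was 2.29-fold higher in wild type (log2 fold change -1.14, SE 0.20). Its footprints did not follow: they were 11.1 and 17.4 RPKM in the knockout against 21.7 and 5.02 RPKM in wild type, on 49 and 57 reads in the knockout against 89 and 15 in wild type. The groups overlapped and the footprint log2 fold change was 0.35 (SE 0.62, adjusted p = 0.923 by limma). Trim30d (ENSMUSG00000057596, chr7:104470014-104507849, minus strand) had 0.383 and 0.345 RPKM in knockout total RNA against 1.71 and 2.01 RPKM in wild type, on 13 and 13 reads in the knockout against 39 and 49 in wild type. For genes with a 0 in any library, as here, reads are the smallest whole numbers that fit the RPKM steps. The mean was 5.10-fold higher in wild type (log2 fold change -1.07, SE 0.15). It was listed at 0 in both knockout footprint libraries and had 1.20 and 1.84 RPKM in wild type, from 37 and 41 reads. Between these 2 genes about 10.5% of 28-base words are shared.

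Both Trim30 genes lie on the chromosome of the deleted gene, 8.74 Mb (Trim30a) and 8.70 Mb (Trim30d) from Arntl. Sequence linked to the deleted locus is inherited with it, so the deletion and any linked variant cannot be told apart for genes in this region; variants were not analysed here. The TRIM genes beside them were uneven. Trim12a, a relative of the retrovirus restriction factor TRIM5, had 0.0163 and 0.0146 RPKM in knockout total RNA (1 read each) against 0.990 and 0.633 RPKM in wild type (41 and 28 reads). Its footprints numbered 0 and 1 in the knockout against 58 and 23 in wild type. Trim34a had 1 and 9 reads in knockout total RNA against 18 and 19 in wild type, and 0 and 0 footprint reads in the knockout against 47 and 40 in wild type. Trim12c, of the same cluster, had 6.92 and 4.69 RPKM in knockout total RNA against 6.10 and 5.71 RPKM in wild type, so its groups overlapped. Trim34b went the other way, with 11 and 2 reads in knockout total RNA and no read in wild type. Trim5 had 18 footprint reads in wild-type animal 3 and none in the other footprint libraries. Trim66, 3.70 Mb from Arntl, had 40.5 and 39.0 RPKM in knockout total RNA against 28.9 and 31.4 RPKM in wild type, and Trim21 and Trim68 overlapped. Trim30c and Trim6 had 10 reads or fewer in each total RNA library and Trim30b was listed at 0 throughout. Within 10 Mb of Arntl 8 of 110 genes tested passed the threshold in total RNA (7.27%), 5 of them lower in the knockout; within 20 Mb it was 13 of 287 (4.53%), and on the whole chromosome 37 of 932 (3.97%). Trim30a and Trim30d, chosen on this contrast, are among the 8 and the 13; leaving both out, it was 6 of 108 within 10 Mb (5.56%), 3 of them lower, and 11 of 285 within 20 Mb (3.86%), against 4.09% of all genes tested. The count of 8 within 10 Mb was lower whenever 1 animal was left out, which left 1 animal in a group. Without wild-type animal 2 or 3, Trim30d had a mean RPKM under 1 and was not tested.

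**Figure D2:**
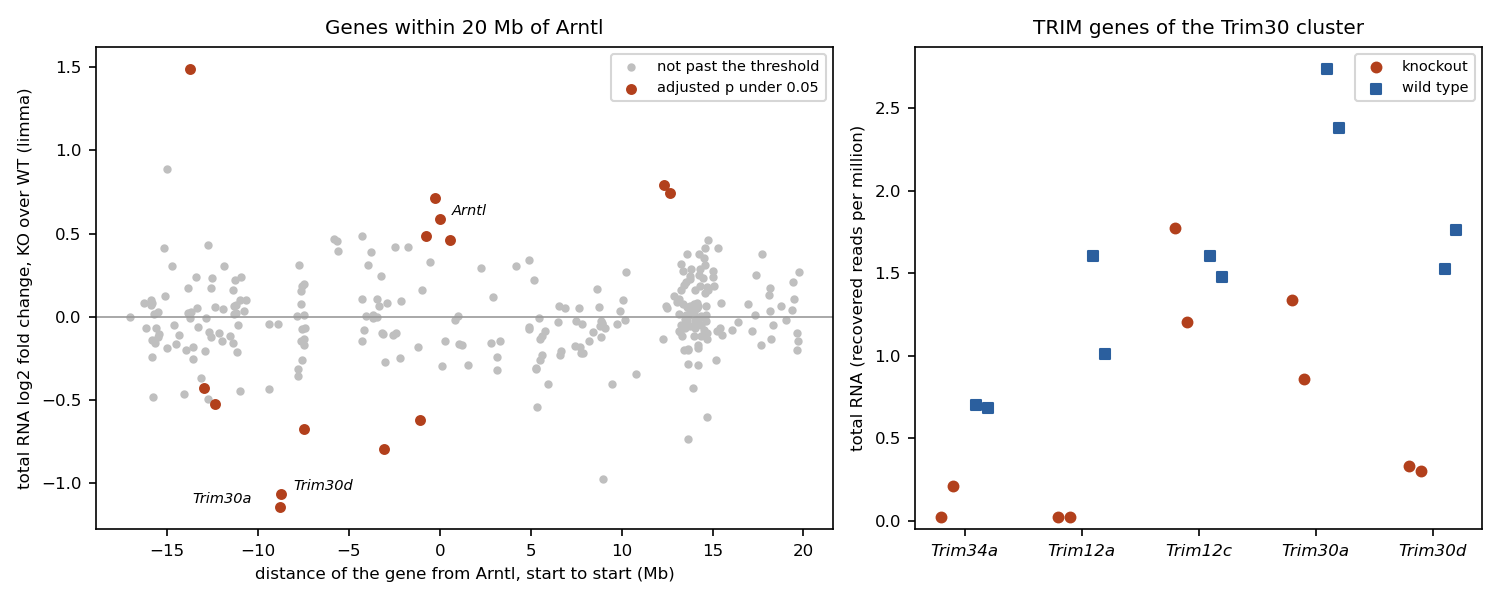
Left, total RNA log2 fold change (knockout over wild type, limma on log2(RPKM + 1)) of genes within 20 Mb of Arntl against their distance from it in Mb, with genes at adjusted p under 0.05 in red. Right, recovered total RNA RPM (recovered reads scaled to library depth) of 5 neighbouring TRIM genes in each animal, knockout left of wild type. Trim30a at -1.14 and Trim30d at -1.07 are the lowest points on the left. On the right Trim12a is near 0 in both knockout animals. Trim34a is lower in the knockout (1 and 9 reads against 18 and 19 in wild type), and Trim12c overlaps.

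In total RNA 25 of the 44 members passed the filter of a mean RPKM of 1, and 4 of them passed the threshold of adjusted p under 0.05 by limma, all lower (Ifit3b, Ifit3, Trim30a and Trim30d); over all genes 4.09% passed, 1.61% in the lower direction and 2.48% in the higher one, in which 0 members passed. These 4 are the genes the choice started from, so the choice itself fixed this count. Ifit3b, Ifit3 and Trim30d also met the RPKM filter only through wild type, with knockout means of 0.527, 0.265 and 0.364 RPKM. Leaving out 1 animal left 1 animal in a group. Ifit3b was then at -3.07 without knockout animal 1 and -2.90 without knockout animal 3. It was at -3.09 without wild-type animal 2 and -2.88 without wild-type animal 3, the one apart in choroid plexus markers. Trim30a was at -1.43, -0.85, -1.06 and -1.23 in the same order. Fewer members passed in each of these fits. Without wild-type animal 2 or 3, Ifit3 and Trim30d had a mean RPKM under 1 and were not tested. With all animals kept, the smallest change among the 4 genes was -1.07 (Trim30d). The next members on this scale, log2(RPKM + 1), were Xaf1 at -0.55 (SE 0.25) and Ifit2 at -0.53 (SE 0.14). Changes of low genes are understated on it. By limma-voom Trim30a was at -1.26 (SE 0.37) and Ifit2 at -1.11 (SE 0.20). Usp18, not tested by limma, was at -1.20 (SE 0.50), so the step below the chosen genes was not seen there. The median total RNA log2 fold change of the 25 was -0.14 and, without the 4, -0.11 over 21 genes; over all genes it was -0.02. By limma-voom, with genes kept by an average of 20 reads or more, 5 of 36 members passed, all lower in the knockout (Ifit3b, Ifit3, Ifit2, Trim30a and B2m), against 12.7% of all genes in either direction and 6.51% in the lower one. Among these 36 members, both knockout animals were below both wild-type animals in 17 and above them in 8, and the same held for 30.1% and 24.6% of all genes. Summed over the 38 members with reads in every library, total RNA was 300 and 292 RPM in the knockout against 325 and 324 in wild type.

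**Figure D3:**
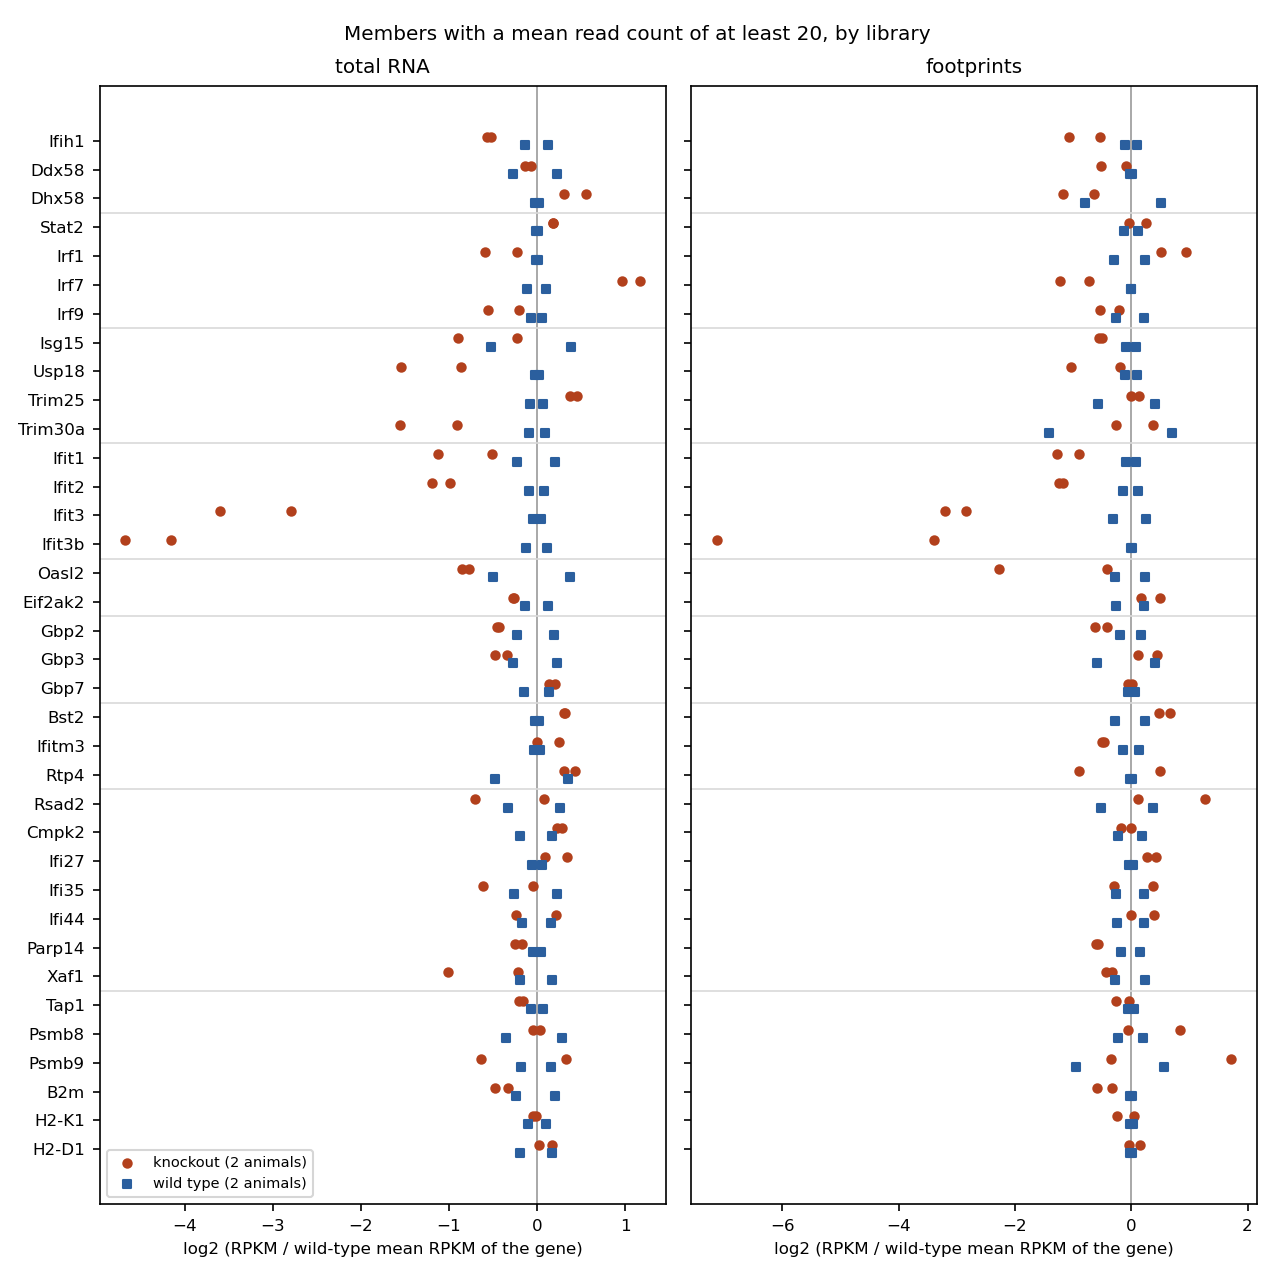
Each animal's RPKM relative to the gene's wild-type mean, on a log2 axis, in total RNA (left) and footprints (right), for the 36 members averaging at least 20 reads, grouped by role from sensors at the top to class I antigen presentation at the bottom, with knockout circles above wild-type squares. Ifit3b and Ifit3 lie far to the left in both panels, while most other members scatter within about 1 log2 unit of 0.

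The sensors of foreign nucleic acid differed among themselves. Ifih1 (MDA5), which detects long double-stranded RNA, had 0.897 and 0.871 RPKM in knockout total RNA against 1.17 and 1.41 RPKM in wild type. Its footprints were 1.42 and 2.04 RPKM in the knockout against 2.77 and 3.16 RPKM in wild type (log2 fold change -0.55, SE 0.23, adjusted p = 0.514 by limma). Neither readout overlapped between the groups, and the footprint difference missed the threshold. Ddx58 (RIG-I), which detects RNA with a 5′ triphosphate, had 1.74 and 1.82 RPKM in knockout total RNA against 2.24 and 1.58 RPKM in wild type, so its groups overlapped. Dhx58, which modulates both, had a total RNA ratio of 1.35 (knockout over wild type) and overlapping footprints. Zbp1, a sensor of Z-form nucleic acid, had 6 reads or fewer in every total RNA library.

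The transcription factors of the response split by gene. Stat2 had 103 and 103 RPKM in knockout total RNA against 91.8 and 89.9 RPKM in wild type, and overlapped in footprints (129 and 158 RPKM in the knockout against 121 and 144 RPKM in wild type). Irf1, which activates class I genes, had 2.40 and 1.86 RPKM in knockout total RNA against 2.83 and 2.78 RPKM in wild type, and 4.23 and 5.68 RPKM in knockout footprints against 3.52 and 2.42 RPKM in wild type. It was thus below wild type in total RNA and above it in footprints. Irf7, the factor that amplifies type I interferon production, had the opposite arrangement, with 0.267 and 0.308 RPKM in knockout total RNA against 0.147 and 0.127 RPKM in wild type, and 0.148 and 0.210 RPKM in knockout footprints against 0.345 and 0.347 RPKM in wild type. Exons of Irf7 overlap Phrf1 and exons of Irf1 overlap Gm17334, each on the opposite strand; whether counting used strand is not given in the sources used here, so their reads are uncertain. Irf9, the DNA-binding partner of Stat2, had a total RNA ratio of 0.773 without overlap and overlapping footprints.

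The ISG15 system attaches the ubiquitin-like Isg15 protein to newly made proteins, and Usp18 removes it. Isg15 total RNA overlapped (20 and 14 reads in the knockout against 11 and 22 in wild type), and its footprints were 0.224 and 0.233 RPKM in the knockout against 0.347 and 0.311 RPKM in wild type. Usp18 had a ratio of 0.446 in total RNA and 0.684 in footprints, below wild type without overlap in both, on 14 to 30 total RNA reads. Trim25, the ligase that activates RIG-I, had 2.63 and 2.79 RPKM in knockout total RNA against 1.93 and 2.14 RPKM in wild type, and overlapping footprints.

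The 2′-5′ oligoadenylate synthetases make the messenger that activates RNase L. Of this family and PKR, Eif2ak2 (PKR), the kinase that halts translation on sensing double-stranded RNA, was the most deeply sequenced. It had 13.7 and 13.6 RPKM in knockout total RNA against 17.9 and 15.0 RPKM in wild type (log2 fold change -0.25, SE 0.12). Its footprints were 24.5 and 19.6 RPKM in the knockout against 20.4 and 14.5 RPKM in wild type (0.33, SE 0.22, adjusted p = 0.728 by limma) and overlapped. Oasl2 had a ratio of 0.570 in total RNA and 0.476 in footprints, below wild type in both without overlap. Oas1a and Oas2 had total RNA ratios of 1.80 and 1.32 and overlapping footprints, but from 3 to 19 total RNA reads, and Oas1a shares 70.6% of its 28-base words with Oas1g. Oas3 and Oasl1 were listed at 0 in at least 1 library each and had 4 total RNA reads or fewer.

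Among the GTPases that disturb viruses and vacuoles, Gbp3 had 41.7 and 46.0 RPKM in knockout total RNA against 68.0 and 48.1 RPKM in wild type (log2 fold change -0.38, SE 0.17). Its footprints were 52.0 and 41.7 RPKM in the knockout against 51.2 and 25.6 RPKM in wild type and overlapped. Gbp7 had 0.855 and 0.819 RPKM in knockout total RNA against 0.816 and 0.671 RPKM in wild type, and 1.27 and 1.34 RPKM in knockout footprints against 1.27 and 1.38 RPKM in wild type. Gbp2 had ratios of 0.738 in total RNA and 0.700 in footprints without overlap. Mx1, which blocks influenza virus in mice with an intact gene, was listed at 0 in 5 of the 8 libraries.

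The membrane factors were mixed. Bst2 (tetherin), which holds budding virions on the cell, had 1.93 and 1.92 RPKM in knockout total RNA against 1.57 and 1.53 RPKM in wild type (log2 fold change 0.20, SE 0.13). Its footprints were 4.80 and 4.19 RPKM in the knockout against 2.49 and 3.55 RPKM in wild type (0.46, SE 0.22, adjusted p = 0.580 by limma). Bst2 was thus above wild type in both readouts without overlap. Ifitm3, which blocks fusion in endosomes, had 0.641 and 0.764 RPKM in knockout total RNA against 0.627 and 0.655 RPKM in wild type, and 1.63 and 1.59 RPKM in knockout footprints against 2.03 and 2.46 RPKM in wild type. Its relative Ifitm2 had 12 reads or fewer per total RNA library, and Rtp4 overlapped in both readouts.

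Of the other effectors, Xaf1, a pro-apoptotic protein, had 7.62 and 13.2 RPKM in knockout total RNA against 17.3 and 13.4 RPKM in wild type; knockout animal 3 and wild-type animal 3 were nearly equal. Its footprints were 28.3 and 26.3 RPKM in the knockout against 29.4 and 41.7 RPKM in wild type. Ifi27, a mitochondrial protein, was above wild type in both readouts, with 11.0 and 13.1 RPKM in knockout total RNA against 9.94 and 10.7 RPKM in wild type. In footprints Ifi27 had 29.9 and 33.3 RPKM in the knockout against 25.3 and 24.3 RPKM in wild type (log2 fold change 0.34, SE 0.14, adjusted p = 0.498 by limma). Parp14, an ADP-ribosyltransferase, had ratios of 0.867 in total RNA and 0.665 in footprints without overlap. Cmpk2, a mitochondrial nucleotide kinase, had a total RNA ratio of 1.20 and overlapping footprints, and Rsad2 (viperin), Ifi35 and Ifi44 overlapped in both readouts.

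Class I molecules show peptides from inside the cell to T cells. B2m, the invariant light chain of every class I molecule, had 21.4 and 19.4 RPKM in knockout total RNA against 31.1 and 22.8 RPKM in wild type (log2 fold change -0.37, SE 0.16). Its footprints were 73.9 and 61.9 RPKM in the knockout against 91.5 and 93.9 RPKM in wild type (-0.45, SE 0.14, adjusted p = 0.347 by limma). B2m was lower in both readouts, with the knockout animals below wild type by more than the gap within a group in footprints only. The heavy chain H2-D1 had 44.8 and 40.3 RPKM in knockout total RNA against 34.8 and 44.8 RPKM in wild type, and 90.7 and 79.4 RPKM in knockout footprints against 80.7 and 82.2 RPKM in wild type. H2-K1, the other heavy chain, had ratios of 0.980 in total RNA and 0.943 in footprints. The heavy chains share 24.6% (H2-K1) and 31.8% (H2-D1) of their 28-base words with other genes. Tap1, which moves peptides into the endoplasmic reticulum, had ratios of 0.881 and 0.904, and the immunoproteasome subunits Psmb8 and Psmb9 overlapped in both readouts.

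In footprints 25 members were tested and 0 passed the threshold by limma, against 0.233% of all genes (29 of 12447). At an unadjusted p under 0.05 there were 3 (Ifit3b, Ifit3 and B2m), against 10.4% of all genes, and the median log2 fold change of the 25 was -0.01 against -0.03 over all genes. With limma-voom the median was -0.19 over 36 members, 22 negative and 14 positive, against -0.02 over all genes. Without the genes the choice started from it was -0.12 over 33 members. By limma-voom 2 of 36 members passed, both lower in the knockout (Ifit3 and Ifit3b), against 1.65% of all genes in either direction and 0.705% in the lower one. Both are genes the choice started from, so nothing is read from this count. Their knockout footprints averaged 0.282 (Ifit3) and 0.682 RPKM (Ifit3b), so both met the RPKM filter of limma only through wild type. Ifit3b, with 1 to 18 knockout reads per library, also met the filter of 20 reads only through wild type. Both knockout animals were below both wild-type animals in footprints of 15 of the 36 members, against 22.5% of all genes, and above them in 3, against 17% of all genes. Total RNA and footprints of an animal came from 1 lysate, so the footprints are not an independent repeat of the contrast that chose the members.

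**Figure D4:**
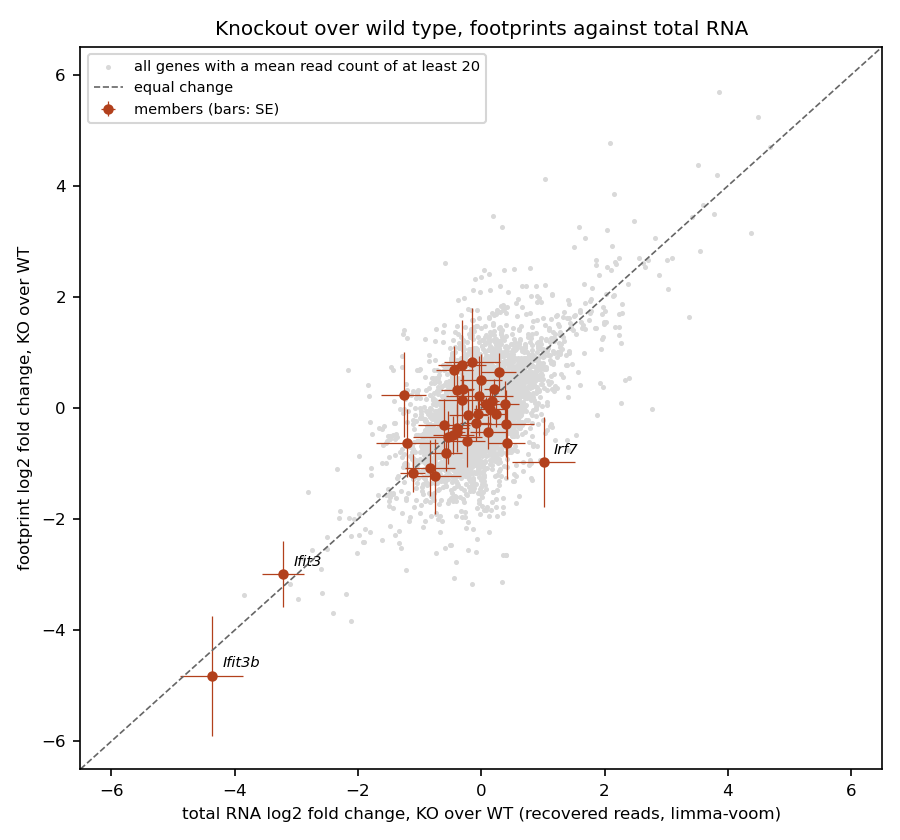
Footprint log2 fold change against total RNA log2 fold change (knockout over wild type, limma-voom on recovered reads) for the 36 members averaging at least 20 reads (red, bars show the SE) over all genes with that count (grey); the dashed line marks equal change. Ifit3b at -4.37 and -4.82 and Ifit3 at -3.21 and -2.99 lie near the line at the lower left, and Irf7 at 1.01 and -0.97 lies away from it.

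Translational efficiency, the footprint RPKM divided by the total RNA RPKM of an animal, overlapped between the groups for the IFIT genes named next, except Ifit2. Ifit3 had efficiencies of 0.936 and 1.28 in the knockout against 1.13 and 0.809 in wild type, and Ifit2 had 0.841 and 0.922 in the knockout against 0.927 and 0.978 in wild type. Ifit3b had 2.05 and 0.220 in the knockout against 1.31 and 1.10 in wild type, the knockout values resting on few reads. By limma, the footprint change beyond that of total RNA was 0.06 (SE 0.27) for Ifit3, -0.19 (SE 0.44) for Ifit3b and 1.49 (SE 0.78) for Trim30a, with an adjusted p of 0.997 for each. Of 22 members tested 0 passed by limma, against 0.0165% of all genes, and 0 of 36 passed by limma-voom, against 0.0075%, likewise in the lower direction. At an unadjusted p under 0.05 limma gave 1 member (Irf1) against 4.55% of all genes, and limma-voom gave 2 (Irf1 and Irf7) against 4.14%.

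As levels, which the choice of members did not use, the median efficiency of members was above the median of all genes in every animal. The median over the 36 members reached 1.64 and 1.52 for knockout and 1.55 and 1.59 for wild type, while over 13331 genes it was 0.924 and 0.948 in the knockout and 0.953 and 0.952 in wild type. Isg15 had the highest geometric mean over the 4 animals, an efficiency of 6.12, above 99.9% of genes. That value is imprecise, as it rests on 11 to 22 total RNA reads per library and ranged from 4.27 to 8.92. Of the 28-base words of Isg15, 14.8% occur in other genes. B2m at 3.40 was above 98% of genes, Gbp2 at 2.97 above 96.7% and Ifitm3 at 2.83 above 96%. At the other end, Irf9 at 0.434 was above 16.2% of genes, and Rsad2 at 0.595 above 26.9%.

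**Figure D5:**
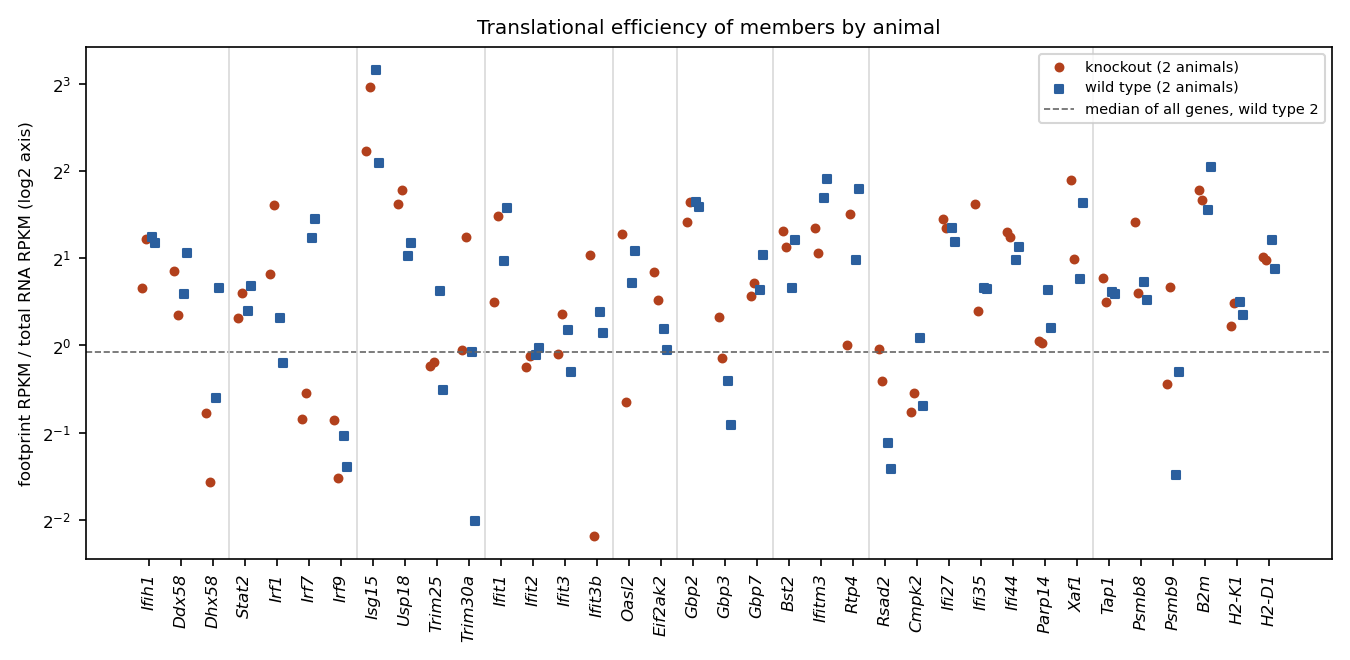
Translational efficiency (footprint RPKM over total RNA RPKM, log2 axis) of the 36 members in each animal, knockout circles left of wild-type squares, grouped by role; the dashed line is the median of all 13331 genes in wild-type animal 2 (0.953). Isg15 is the highest in every animal, and Irf7 is lower in the knockout (0.556 and 0.683) than in wild type (2.35 and 2.73).

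The type I receptor gene Ifnar1 had 64.2 and 60.2 RPKM in knockout total RNA against 61.4 and 63.9 RPKM in wild type, and Ifnar2 had 1.23 and 1.19 RPKM in the knockout against 1.09 and 1.23 RPKM in wild type. The receptors for interferon gamma, Ifngr1 and Ifngr2, had log2 fold changes of -0.19 (SE 0.12) and 0.10 (SE 0.11), with adjusted p of 0.412 and 0.622 by limma. Of 16 ligand and receptor genes, 8 interferon genes were listed at 0 in every library, Ifnb1 among them. Of 113 further genes of the pathway (ligands and receptors, upstream signalling, JAK-STAT and feedback, other induced genes, other antigen presentation genes), 109 had a row and 64 were tested in total RNA, 1 rose and 0 fell by limma (1.56%, against 4.09% of all genes), with a median of -0.04 and list medians from -0.06 to -0.00. The gene that rose was Ly6e, an interferon-induced membrane protein, with 167 and 149 RPKM in the knockout against 88.0 and 74.4 RPKM in wild type (0.96, SE 0.11, adjusted p = 0.0135; 0.0708 without knockout animal 1). In footprints 0 of 69 passed, against 0.233% of all genes, with a median of -0.07, and in efficiency 0 of 62, against 0.0165%. At an unadjusted p under 0.05 limma gave 20 of 64 in total RNA (31.2%, against 22.1% of all genes), 8 of 69 in footprints (11.6% against 10.4%) and 2 of 62 in efficiency (3.23% against 4.55%). By limma-voom 6 of 74 passed in total RNA (8.11%, against 12.7% of all genes), with Ly6e higher and Jak2, Psmb10, Samd9l, Tbk1 and Znfx1 lower. By limma-voom 0 of 74 passed in footprints, with 3 at an unadjusted p under 0.05 (4.05% against 10.3%), and 0 of 74 in efficiency, with 1 (1.35% against 4.14%).

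Markers of cell types that carry interferon responses moved in part. The 15 of 16 microglial markers with reads in every library summed to 185 and 193 RPM in knockout total RNA against 252 and 260 in wild type, and to 346 and 358 in knockout footprints against 476 and 453 in wild type. Of 13 tested in total RNA, 12 had negative changes (median -0.28) and Ctss (-0.53, SE 0.09, adjusted p = 0.0373 by limma) and C1qb (-0.57, SE 0.11, adjusted p = 0.0453) fell. No microglial marker was listed at 0 in every library. Microglia are a known source of B2m and of IFIT genes; the part of these markers in the member values was not tested. The 15 endothelial and mural markers summed to 359 and 321 RPM in the knockout against 396 and 312 in wild type, with overlap, and 1 of 14 passed the threshold (Cldn5, higher in the knockout at 0.84, SE 0.12). S100b of astrocytes (-0.65, SE 0.09) and Dcn of fibroblasts (-0.82, SE 0.09) fell, while Igfbp2 of fibroblasts (1.07, SE 0.13) and the choroid plexus genes Sostdc1 (1.61, SE 0.23) and Prlr (3.18, SE 0.56) rose, with adjusted p by limma of 0.0174, 0.00916, 0.0128, 0.0207 and 0.0397 in that order. All 8 choroid plexus markers tested had positive changes (median 2.31). Of 6 markers of blood and infiltrating myeloid cells 0 passed the threshold (median -0.05). Each of the 10 markers of T, B and NK cells was listed at 0 in at least 1 library, Cd8a among them in every total RNA library and Gzmb in all 8, and none was tested in total RNA.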

How the data were processed

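Per the labels' protocols, cerebellar lysates were split into RNase-treated footprints and total RNA fragmented for 40 min, both were depleted of ribosomal RNA, and libraries were made with a small RNA kit. Bowtie, STAR and Cufflinks and the build mm10 are named, per the submitters' processing notes; versions and strand use are not given in the sources used here. The authors deposited RPKM per gene and library, a signal column headed as a mean read count, and a ratio of footprint to total RNA RPKM (translational efficiency), which equalled that quotient within 2% in 47788 ratios checked. The series has 10 libraries and the table holds 8. Total RNA of knockout animal 2 and wild-type animal 1 was not analysed here, and the tests were planned for the libraries that have a column.

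The mean read count behaved as the geometric mean of the 8 read counts: with it, 99.93% of 4392 values in low genes came out within 0.1 of a whole number. Whole reads were thereby recovered for 13880 genes, and depths are sums of these. Genes were tested with limma 3.58.1 (R 4.3.3, variance trend) on log2(RPKM + 1) where RPKM averaged at least 1, with Benjamini-Hochberg adjustment over all genes and a threshold of 0.05; fold changes of low genes are understated on this scale. The efficiency test was the genotype-by-library-kind interaction term. limma-voom on recovered reads of genes averaging at least 20 reads (geometric mean) was added after seeing the data. The scripts were tested on simulated data. Replicates are biological replicates per the series' text. The p-values of total RNA and of footprints measure the spread among 2 animals per group, with variance information shared over all genes. The efficiency test took the 8 libraries as independent, although the 2 kinds of library share an animal. A total RNA and a footprint library share an animal through the lysate; the correlation of their deviations was -0.0 in the knockout and 0.26 in wild type.

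Members, role groups, pathway lists and marker lists were chosen with earlier results of these data known. Values in every library are given for the Ifit3 and Trim30 genes, members past a threshold, and per role group the member with the largest limma change and the most reads; others, such as Irf7, Isg15 and Ifit1, were added after their values were seen. Sequences and positions came from RefSeq GRCm38.p6 and GENCODE M21, in which 21951 of 22046 gene IDs were found. Exons of Dhx58, Irf9, Usp18, Oasl1, Eif2ak2, Gbp2, Gbp7, Ifitm2, Rtp4, Ifi35, Parp14, Psmb8, Tap1 and Psmb9 also overlap another gene, so their reads are uncertain. Another pseudocount, filter or scaling, 1 fit over all libraries, a block for the animal and leaving out each animal were tried. A gene of the pathway lists is not reported here.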

Additional observations from a re-analysis of the deposited data

Results flagged for a closer look

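For Irf1 both knockout animals were below both wild-type animals in total RNA and above them in footprints, and for Irf7 the order was the opposite in each. These genes were picked by searching the 36 members averaging at least 20 reads for such opposite orders. Over all genes with that count, both knockout animals were below in 30.1% and above in 24.6% for total RNA. In footprints they were below in 22.5% and above in 17%. The share of all genes with opposite orders was not counted. The limma-voom difference in efficiency, knockout minus wild type, was 1.13 (SE 0.51) on the log2 scale for Irf1, with efficiencies of 1.76 and 3.06 in the knockout against 1.24 and 0.872 in wild type. For Irf7 it was -1.97 (SE 0.78), with 0.556 and 0.683 in the knockout against 2.35 and 2.73 in wild type, on 35 and 45 total RNA reads in the knockout against 13 and 12 in wild type. The tests of these differences did not pass the threshold: the adjusted p was 0.983 for each by limma-voom, and 0.978 for Irf1 by limma (0.87, SE 0.28). Irf7 had a mean RPKM under 1 and was not tested by limma.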

How the results depend on the processing

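Genes passing in total RNA numbered 519; the count was 26 with no filter on low values, 1621 by limma-voom on recovered reads, 1689 by limma-voom on genes averaging at least 20 reads, 217 with all libraries in 1 fit, and 117 to 563 without 1 animal. In footprints it was 29, and 17 with a pseudocount of 0.1 RPKM, 1 with no filter, 200 and 220 by the same forms of limma-voom, 315 in 1 fit and 1 to 6 without 1 animal. In efficiency it was 2, and 5 with the pseudocount of 0.1, 0 with no filter or quantile normalization, 1 by each limma-voom, and 0 to 0 without 1 animal. Neighbours of Arntl within 10 Mb that passed numbered 8, and 0 with no filter, 5 with quantile normalization, 15 by each limma-voom, 2 in 1 fit and 1 to 3 without 1 animal. The cause of these shifts was not tested. In footprints 0 members passed in 7 alternatives, and 1 or 2 in the other 4. Ly6e missed the threshold with no filter (adjusted p = 0.0882) and in 1 fit (0.102), by limma. The fold changes recomputed for Ifit3b, Ifit3, Ifit2, Trim30a, Trim30d, B2m, Ly6e and Irf1 kept their direction in each setting that tested them. Some medians turned between the fits. The median efficiency change of members was 0.03 by limma and -0.02 by limma-voom. In total RNA the upstream signalling list had a median of -0.00 by limma and 0.19 by limma-voom.

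The efficiency fit with the animal as a replicate block called 1 gene, and no member. No paired analysis was possible because knockout and wild-type columns share only the number 3, for total RNA and for footprints. Each group had 2 animals, and the knockout values of Ifit3b rest on 1 to 18 reads per library, so its fold change is imprecise; Trim12a, Zbp1 and Oas3 rest on as few.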
